A study of Mus musculus with 8 samples.

Results

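The stricter list of cryptic transcription starts in old mouse liver holds 216 intervals of 150 bp, of 1627 intervals in the 4 deposited lists of the series. Every row of that list was taken. Its members had been selected on measured values: the list's name carries 10 RPM, a read level, and 10 FC, a fold of old over young liver. They were set beside the 762 of 976 intervals of the larger old list that overlapped none of them. The larger young list holds 425 intervals and the stricter young list 10. Liver of C57BL/6J mice had been frozen and profiled by PRO-cap in 8 samples. The old group was 4 samples from mice aged 22 to 25 months and the young group 4 from mice aged 2 to 4 months. Each group held 2 female and 2 male samples, and all mice ate standard chow. Old mice came from the colony of the National Institute on Aging and young mice from Jackson Laboratories, so age and supplier cannot be told apart. Each age has 1 pooled value per interval, with no replicate values, so no test of age was made. The larger lists carry the marks OF and YF. The labels name each of them on all 4 samples of its age, female and male. No source used here says whether they pool females alone or both sexes.

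PRO-cap is a nuclear run-on assay that sequences the capped 5′ ends of RNA still being made, and so marks the places where RNA polymerase II starts. Most starts lie at annotated promoters. A cryptic start lies inside a gene, away from its promoters, where nucleosomes and the marks left by elongating polymerase normally keep initiation low. Such a start can come from a spurious promoter, an enhancer within the gene or a transcript model that the annotation lacks, and PRO-cap by itself does not tell these apart.

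Most members were intronic, and the intronic sequence is not analysed here. In 11 of 216 members the centre lay in a coding exon, and the base sequence there can be read from the GENCODE M21 transcripts (GRCm38). The 4 coding members with 0 reads in young liver are shown first, because there capped RNA was recovered from the old side alone. Of the 150 bp of these intervals, 98 to 132 bp lay in the coding exon. Where in an interval the capped ends fall is unknown, so initiation within the reading frame was not shown. Adcy1, with the most reads of the 11, and N4bp3, with the highest GC content, follow. Each line gives the part of the interval inside the coding exon, 5′ to 3′ on the strand of the gene, with the 11 bases around the interval's centre in capitals. The strand of the capped RNA is unknown, because every deposited row has a plus sign as a placeholder.
Pigr, chr1:130848991-130849118, plus strand: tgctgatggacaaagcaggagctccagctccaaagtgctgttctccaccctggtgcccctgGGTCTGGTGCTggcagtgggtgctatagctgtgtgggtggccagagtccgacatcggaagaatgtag
Nme7, chr1:164332612-164332731, plus strand: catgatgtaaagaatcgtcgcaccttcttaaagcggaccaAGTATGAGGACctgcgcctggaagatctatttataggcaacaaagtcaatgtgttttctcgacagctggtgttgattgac
Ncapg2, chr12:116442937-116443034, plus strand: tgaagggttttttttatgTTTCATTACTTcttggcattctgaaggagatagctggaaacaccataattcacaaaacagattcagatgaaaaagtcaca
4930539E08Rik, chr17:28899615-28899746, minus strand: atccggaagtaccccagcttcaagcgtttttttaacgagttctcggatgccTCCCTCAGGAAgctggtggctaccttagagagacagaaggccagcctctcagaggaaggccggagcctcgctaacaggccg
Adcy1, chr11:7150777-7150903, plus strand: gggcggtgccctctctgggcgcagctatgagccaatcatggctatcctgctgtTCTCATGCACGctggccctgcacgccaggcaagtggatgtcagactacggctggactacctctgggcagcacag
N4bp3, chr11:51643902-51644051, minus strand: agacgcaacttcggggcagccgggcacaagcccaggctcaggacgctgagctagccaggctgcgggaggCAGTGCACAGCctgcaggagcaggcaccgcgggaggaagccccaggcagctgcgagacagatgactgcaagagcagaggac

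The coding members had no common base composition. GC content was 33.7% in Ncapg2, which encodes a condensin II subunit and whose stretch held 0 CpG pairs, and 67.3% in N4bp3, with 8 CpG pairs. The median over the 11 was 56.8% GC, against 53.1% (41.3% to 67.3%) over the 42 coding intervals of the rest of the larger list. Pigr encodes the polymeric immunoglobulin receptor of epithelial cells, and its interval had 661 old reads and 0 young reads. The uncharacterised gene 4930539E08Rik followed with 406 against 0. Nme7, of the nucleoside diphosphate kinase family, had 336 against 0, and Ncapg2 279 against 0. The other coding members also had reads in young liver. Adcy1, an adenylyl cyclase, had 765 old reads against 37 in the larger-list interval that overlapped it. Thap3 had 246 against 19, N4bp3 209 against 18, Pappa2, a protease of insulin-like growth factor binding proteins, 216 against 6, Pnpla5 206 against 6 in an overlapping, shifted interval and Ms4a4c 203 against 6. Csmd1, a large membrane protein, held the eleventh interval, which overlapped no larger-list interval and so has no read value.

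No member overlapped a RefSeq promoter window, a stretch of 300 bases from 250 before to 50 after an annotated start. That was 0 of 208 members on chromosomes with such windows (upper 95% limit 1.76%), against 5 of 742 in the rest (0.674%). In GENCODE M21 the least distance to an annotated start was 3608 bp for members and 3577 bp for the rest. Distance from annotated starts may thus be part of how both lists were made, so these shares are a description only. The median gap was 24927.5 bp. The closest windows are shown, because among those 208 members they are the RefSeq starts nearest to any intronic member of a protein-coding gene. Both belong to predicted genes on the strand opposite to the host. The window of Gm41065 lies 194 bp from the Ankrd55 member (chr13:112356249-112356398), and that of Gm52893 lies 407 bp from a Met member (chr6:17542454-17542603). Capitals mark the 50 bases from the annotated start onward, read 5′ to 3′ on the minus strand (RefSeq, GRCm38.p6).
Gm41065, chr13:112355756-112356055: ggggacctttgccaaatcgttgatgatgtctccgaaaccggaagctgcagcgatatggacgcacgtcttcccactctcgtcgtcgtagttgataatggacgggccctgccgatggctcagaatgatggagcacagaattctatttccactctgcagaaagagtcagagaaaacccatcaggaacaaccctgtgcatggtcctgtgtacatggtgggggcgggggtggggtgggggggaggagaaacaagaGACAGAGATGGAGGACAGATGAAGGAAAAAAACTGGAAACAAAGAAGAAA
Gm52893, chr6:17541748-17542047: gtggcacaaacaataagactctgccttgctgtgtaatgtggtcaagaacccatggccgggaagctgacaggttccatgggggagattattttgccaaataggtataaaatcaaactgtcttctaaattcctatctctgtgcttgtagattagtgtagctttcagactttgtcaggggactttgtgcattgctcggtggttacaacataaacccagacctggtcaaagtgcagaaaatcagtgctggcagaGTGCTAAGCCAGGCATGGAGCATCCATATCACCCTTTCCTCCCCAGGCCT

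GC content of these windows was 52% for Gm41065 and 46.7% for Gm52893. The Ankrd55 member beside the former had 641 old reads and 0 young reads, and its nearest start in GENCODE M21 was 11521 bp away. The Met member beside the latter had 292 against 0, with its nearest GENCODE start 4444 bp away. Met encodes the hepatocyte growth factor receptor, and its other member had 201 against 1. A member in the non-coding gene Gm30551 lay 472 bp from the window of Gm46398. In all, 9 of 208 members (4.33%) were closer to a RefSeq window than 3608 bp, the least distance of any member to a GENCODE start. These measures differ: the gap to a window runs from edge to edge, and the GENCODE distance from the interval's centre to the start. For those 9, the distance from known starts depends on the annotation used.

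The members had been selected on reads and a fold, over a window and strand that no source used here gives. The read values below come from the same libraries as far as the labels say, so they are given as a description, with no test. They were recovered from the fold deposited in the larger list, need not be the values that set the threshold, and stand for the 182 members (84.3%) that have a larger-list interval of the same coordinates. Another 15 members (6.94%) overlapped a shifted interval, and 19 (8.80%) overlapped none. On the old side the 182 members had 37 to 4412 reads, with a median of 298 and quartiles of 223 and 447. The rest of the larger list had 3 to 2176, with a median of 138.5. On the young side members had 0 to 31 reads (median 3) and the rest 0 to 101 (median 5). Young reads were 0 at 81 of 182 members (44.5%, 95% interval 37.2 to 52.0) and at 257 of 762 others (33.7%, 30.4 to 37.2). Ratios assume that both ages were scaled alike, which puts the depth of old over young at 0.953. On that scale the 101 members with young reads had a median ratio of 44.5 (12.2 to 341), against 19.7 (at most 618) for 505 others. For intervals with 0 young reads the ratio was set against a floor of 3 reads, and the median lower bound was 113 for members and 39.2 for the rest. The lower limit, which is this floor value at 0 young reads and the lower end of the two-sided 95% counting interval otherwise, was below 10 for 7 of 182 members (3.85%) and 259 of 762 others (34.0%). At 10 of the 182 members another, overlapping larger-list interval had more old reads. In whole liver, fewer cells of a type and less RNA per cell cannot be told apart, so a count of 0 in young liver may belong to either. Intervals cover counting error only, not the spread between animals, and treat each read as independent. Reads amplified by PCR are not independent molecules, so the intervals may be too narrow.

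**Figure D1:**
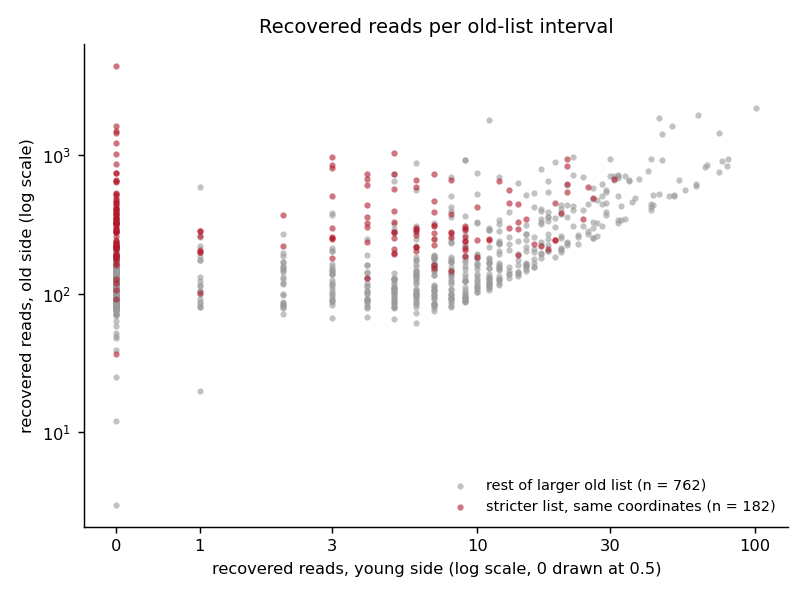
Reads recovered for each old-list interval, with reads on the young side on the horizontal log axis (0 is drawn at 0.5) and reads on the old side on the vertical log axis. Red points are the 182 members with the same coordinates and grey points the 762 other intervals of the larger list; the column at 0 young reads is red at the top and grey below, while above 30 young reads nearly all points are grey.

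A high count of old reads did not by itself place an interval in the stricter list. Of 46 larger-list intervals with at least 300 old reads and 0 young reads, 45 (97.8%) overlapped a member. With at least 300 old reads and any young read, 53 of 176 did (30.1%). Under 100 old reads, 6 of 103 with 0 young reads (5.83%) and 2 of 88 with young reads overlapped a member. The members lowest in reads were those in the non-coding gene Mirt1 (37 against 0), in Nr3c2, the mineralocorticoid receptor gene (88 against 9, shifted), in Chd1, a chromatin remodeller (91 against 0), and in Ror1 (101 against 1). By the highest larger-list interval that overlaps them, Mirt1 had 354 old reads and Chd1 241, which leaves Nr3c2 and Ror1 lowest. Outside the list lay intervals with more reads, such as those in Tmem163 (2176 against 101), Ankrd55 (1794 against 11), Tnfsf18 (919 against 9), Smurf1 (736 against 5) and Sp100 (589 against 1, a ratio of 618). The highest interval left out with 0 young reads had 326. Ankrd55 and Tnfsf18 also host members with fewer reads, 641 against 0 and 162 against 7. The Tnfsf18 interval left out was thus higher than the member in old reads, and no value here shows what left it out. The 214 larger-list intervals that overlap a member were 21.9% of that list and held 33.9% of its old-side reads.

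Protein-coding host genes numbered 160, which is 0.73% of all protein-coding genes. Of these, 128 held 1 member, 23 held 2 and 9 held 3 or more, and these 9 genes together held 33 members. Runs were shared with the larger list, where 76 of the 160 hosts (47.5%) also held an interval of the rest, which is 14.2% of the 537 hosts of the rest. All protein-coding genes give the background, of which 2.45% hosted an interval of the rest and 1.39% an interval of the larger young list, with no adjustment for gene length. Of the 160 hosts, 14 (8.75%) also held an interval of the larger young list, 4.61% of its 304 hosts. For hosts of the rest that share was 27 of 537 (5.03%). The 14 were Ano6, Arhgef3, Arl15, Dip2b, Dixdc1, Foxp1, Magi2, Met, Msra, Nsmce2, Pde4d, Rfx4, Ror1 and Sgms1. No member overlapped a young interval, which the opposite folds alone would give, and the closest centres were 781 bp apart in Arhgef3. No host was shared with the stricter young list of 10.

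Nfatc1, a calcium-regulated transcription factor that acts in lymphocytes, bone and heart valves, held the most members. Its 7 members had 4412, 1619, 742, 517, 415, 310 and 283 old reads. Young reads were 9 at the member with 310 and 0 at the other 6. Together they held 11.3% of the old reads of members with the same coordinates. They formed 4 loci when intervals within 500 bp were joined, 5 members in the ninth and last intron of 9, and 2 in intron 6. The largest pair, chr18:80614874-80615023 and chr18:80614975-80615124, overlapped, so its reads may be counted in both. Against the floor of 3 young reads, the highest member was at least 1544-fold higher in old liver, and the lowest with 0 young reads at least 99.0-fold. The lower two-sided 95% counting limit for the highest is 1255.

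Sox5, a Sry-box factor of cartilage and neural development, held 4 members. Their old and young reads were 1448 and 0, 452 and 13, 368 and 0, and 245 and 10. All 4 lay between chr6:144688121 and chr6:144692290, at relative positions 0.094 to 0.098 from the gene's annotated start. No Sox5 transcript of the protein-coding type spans them, so their place in Sox5 rests on its other transcripts. The nearest start of a protein-coding transcript of any gene was 340627 to 344647 bp away. There they also lay within Sox5os3, an annotated antisense gene, whose start at 8494 to 12514 bp was the nearest. Without the strand of the reads, initiation in Sox5 and in its antisense gene cannot be told apart. Stk3, the MST2 kinase of the Hippo pathway that limits liver growth, also held 4 members, with 1232, 533, 494 and 329 old reads and 0 young reads at each. They lay in its last 2 introns, 9 and 10 of 10, across 3 loci. Against the same floor the lowest of them was at least 115-fold higher in old liver (two-sided limit 93.1).

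Another 6 hosts held 3 members each. Igf1r, the receptor of insulin-like growth factor 1, had 385, 337 and 120 old reads and 0 young reads, in introns 19 and 20 of 20, and its pair with 385 and 120 overlapped. Msra, which reduces oxidised methionine in proteins, had 670 against 31, 648 against 0 and 260 against 1, all in its last intron of 87074 bp. A further 9 intervals of the rest lay in Msra, the most beside members in any of these 9 genes. Pde4b, a cyclic AMP phosphodiesterase, had 494 against 26, 365 against 0 and 326 against 4, in intron 7 of 16. In Trio the reads were 623 against 21, 440 against 4 and 274 against 7, and 2 of the 3 lay in an exon that the annotation gives as untranslated. Arhgef3 had 297 against 3, 292 against 6 and 182 against 3, all in intron 5 of 97204 bp. Tenm4, a teneurin adhesion protein, had 733 against 4, 220 against 2 and 180 against 0. Members of 1 gene thus differed in their young reads. In Nfatc1, Sox5, Msra, Pde4b and Tenm4 some members had 0 and others had young reads. In Stk3 and Igf1r all had 0, and in Arhgef3 and Trio none did. Of the 7 members in Nfatc1, only 1 had young reads.

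**Figure D2:**
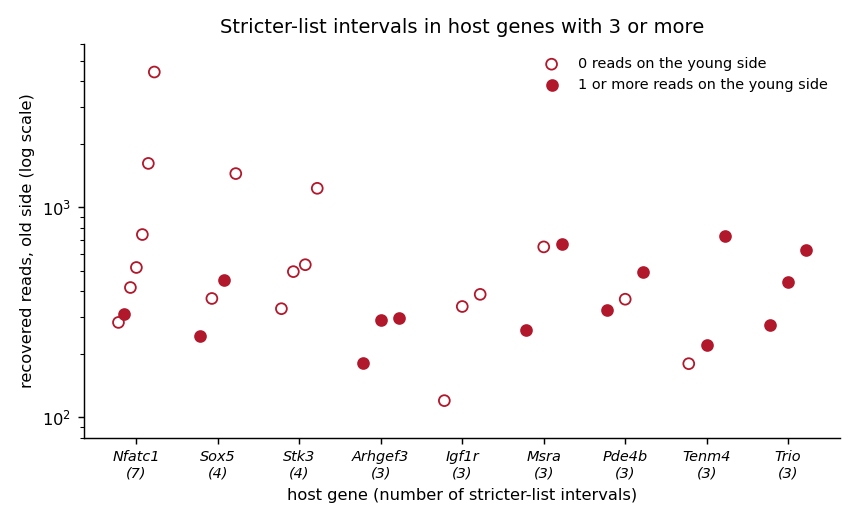
Reads on the old side (vertical log axis) of each member in the 9 host genes with 3 or more members (horizontal axis, number of members in brackets), as open points for 0 young reads and filled points for 1 or more. Stk3 and Igf1r have open points throughout, Arhgef3 and Trio filled ones, and the highest Nfatc1 point stands at 4412 reads.

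Other members with high reads lay in genes of varied function. The uncharacterised gene 3300002I08Rik had 1503 old reads against 0 young reads, a ratio of at least 526 against the floor (two-sided limit 427). Ms4a6c, of a family of membrane proteins found on immune cells, had 1149 against 2 in a shifted interval, which also lay within the non-coding gene BE692007. Elmo1, an adaptor of Rac activation in phagocytosis and migration, had 1032 against 5, a ratio of 217 (95% interval 92.5 to 669), and 249 against 3 at its other member. Runx2, a runt-domain factor, had 1020 against 0. Prkce, a protein kinase C, had 939 and 831 at a pair 318 bp apart, each with 21 young reads. The member in the non-coding gene Gm17745 had 975 against 3. Bcl2, an inhibitor of apoptosis, had 854 against 3 and 371 against 2, both inside an annotated antisense gene.

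Members are not independent of each other where they stand close. Joining intervals within 500 bp left 197 loci, of which 18 held 2 or more members, 37 in all. Neighbours overlapped in 5 cases, in Dusp16, Rarb, Nfatc1, Igf1r and Magi2, and another 9 pairs had starts 150 to 500 bp apart. The Dusp16 pair overlapped a single larger-list interval, of 221 old reads, so both members rest on the same reads. Of the 197 loci, 27 also held 38 intervals of the rest.

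The stricter list's name also carries NoInt, which no source used here explains, so whether place within genes helped to choose its members is unknown. Members lay in introns in 185 of 216 cases (85.6%, 95% interval 80.3 to 90.0), in coding exons in 11 (5.09%), in untranslated exons in 14 (6.48%), in exons of non-coding transcripts in 3 (1.39%) and outside genes in 3 (1.39%). The untranslated exons belonged to Pla2g16, Cap2, Dusp16, Trio, Mettl8, Celf2, Zbtb46, Cacnb1, Fgl2, Anks1b, Ackr2 and BC049352. Dusp16, a phosphatase of JNK, and Trio held 2 of these each. Over loci, 26 of 197 members (13.2%) and 84 of 654 others (12.8%) were exonic, a difference of 0.354 percentage points (95% interval -4.54 to 6.28; two-sided Fisher's exact test p = 0.904, 1 after Benjamini-Hochberg adjustment over 3 tests). Coding exons held 11 of 197 (5.58%) and 36 of 654 (5.50%), a difference of 0.0792 points (-3.09 to 4.48; Fisher's exact p = 1, adjusted 1). Neither difference was detectable, and the sign of each turned when every interval was counted or 1 per host gene. These p-values compare 2 lists from the same reads and say nothing of the spread between animals.

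**Figure D3:**
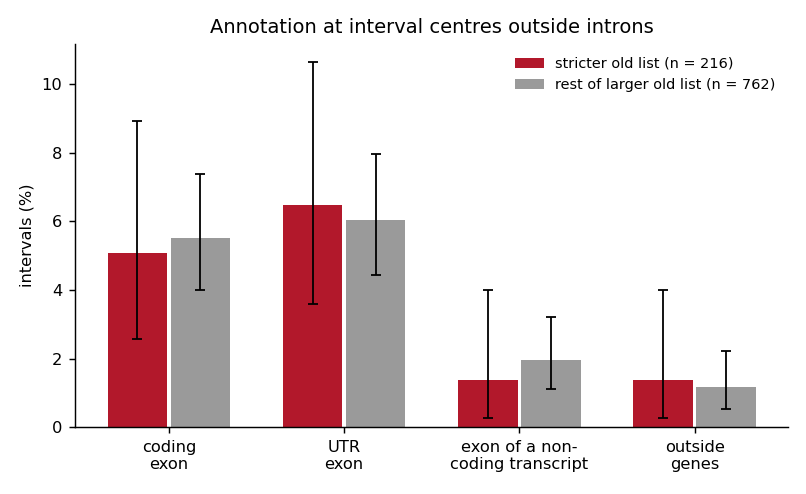
Share of intervals (vertical axis, percent) whose centre lay in a coding exon, an untranslated exon, an exon of a non-coding transcript or outside genes, for the 216 members (red) and the 762 other intervals of the larger list (grey). Bars start at 0 and error bars are 95% Clopper-Pearson intervals over intervals, which overlap in every class; introns, with 85.6% and 85.3%, are not drawn.

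Hosts of members were long genes. Their median length was 101489 bp, against 91909 bp for hosts of the rest and 17410 bp for all 21924 protein-coding genes. Members lay at least 3608 bp from any start annotated in GENCODE M21, so the shortest genes could not host one. The contrast with all genes was not tested and is a description only. Over loci, 99 of 184 members (53.8%) and 299 of 612 others (48.9%) lay in a host longer than the median of 106578 bp. The difference of 4.95 points had a 95% interval of -3.27 to 13.0 and did not pass the test (Fisher's exact p = 0.274, adjusted 0.823). The intron around the centre had a median of 24962 bp over 171 members and 15810 bp over 614 others, values given here without a test. An intron over 50 kb held 54 of those 171 members (31.6%) and 145 of the 614 others (23.6%). The first intron held 18 members (10.5%), against 83 others (13.5%), and the last intron 34 (19.9%) against 95 (15.5%). Mid1 hosted the 1 member on chromosome X, in a first intron of 241581 bp, with 214 reads against 0.

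The position along the host gene was close in both lists. Beyond the middle lay 187 of 202 members in protein-coding genes (92.6%, 88.0 to 95.8) and 679 of 715 others (95.0%), and the median position was 0.755 and 0.759 from start to end. No source used here says how cryptic starts were defined. The gap before the middle and the distance from annotated starts may both be part of that definition. Besides the 4 in Sox5, the members before the middle were 2 in Asph, 2 in Ankrd33b and 1 each in Zbtb38, Nme7, C130026I21Rik, Ror1, Dclk1, Rel and Litaf. The nearest start annotated in GENCODE M21 was 3608 to 190812 bp away, with a median of 13361.5 bp (13060 bp for the rest). It belonged to the host gene itself for 123 of 202 members (60.9%) and 399 of 715 others (55.8%). Counting starts of transcripts of the protein-coding type alone, the median distance of members was 32907.5 bp, since fewer starts are then counted.

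**Figure D4:**
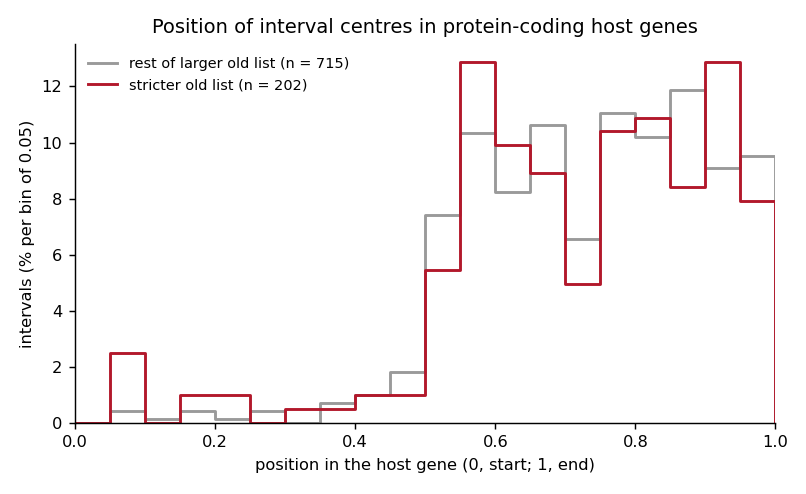
Relative position of interval centres in their protein-coding host gene (horizontal axis, 0 at the start and 1 at the end) as a percentage of intervals per bin of 0.05 (vertical axis), for 202 members (red) and 715 other intervals of the larger list (grey). Both lines rise at the middle of the gene, and the red bump below position 0.1 is led by the 4 Sox5 members. No Sox5 transcript of the protein-coding type spans those members.

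Host genes were then read against gene lists for liver cell types and pathways. All protein-coding genes give the background: 0.73% of them hosted a member, 2.45% an interval of the rest and 1.39% an interval of the larger young list. These shares are adjusted neither for gene length nor for expression in liver. Genes of transcription factors of lymphoid and myeloid cells hosted members in 9 of 44 cases (20.5%; median length 84527 bp). The same list hosted intervals of the rest in 16 of 44 and of the larger young list in 1 of 44, Foxp1. Several of these genes were already known as hosts when the list was written, so its count is no independent evidence. The lists hold no level at annotated promoters, so the share of lymphoid cells in each age could not be read from them and its part was not tested.

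The 9 genes were Bcl11b, Elf1, Foxp1, Ikzf1, Ikzf3, Nfatc1, Nfkb1, Rel and Runx2. Ikzf1, the Ikaros factor of lymphocyte development, had 860 old reads against 0 in intron 3 of 7, a ratio of at least 301 against the floor (two-sided limit 244). The related Ikzf3 had 206 against 0 and 275 against 8, also in intron 3 of 7. The NF-kB genes Rel and Nfkb1 had young reads at every member: Rel had 662 against 8 (ratio 86.9, 43.8 to 202), and Nfkb1 had 284 against 6 and 278 against 5. Bcl11b, a T cell factor, had 284 against 0. Elf1, an ETS factor of blood cells, had 219 against 0, and the forkhead factor Foxp1 had 207 against 1 and 179 against 0. Outside Nfatc1, Runx2, Ikzf1 and Rel, the members of these genes thus had 179 to 284 reads, below the median of 298 over all members.

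Genes of B and T cell signalling hosted members in 4 of 39 cases (10.3%), and intervals of the rest in 5 of 39. They were Dock2, Elmo1, Hvcn1 and Pigr, of which Pigr is an epithelial gene. Hvcn1, the proton channel of phagocytes and B cells, had 448 against 14 and 297 against 9. Dock2, an activator of Rac in leukocytes, had a member without a larger-list interval. For lists of 20 genes the background is 0.73% for members and 2.45% for the rest. Each comes to less than 1 host, so the following counts are near it. No gene of the 20 for Kupffer cells and macrophages hosted a member or any interval of the rest. Among liver endothelial genes 1 of 20, the vascular cadherin gene Cdh5, hosted a member, of 162 against 0 (255 old reads at another larger-list interval that overlaps it), and among 20 stellate cell genes none did.

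Genes for the functions of hepatocytes did not host members. The counts were 0 of 28 nuclear receptors and hepatocyte transcription factors, 0 of 29 secreted proteins and 0 of 30 genes of lipid, bile acid and glucose metabolism. At 0.73% of all genes, lists of this size would hold less than 1 host, so a count of 0 is near the background. In the larger young list the first of these had 6 of 28 hosts (21.4%), among them Hnf4a and Rora, the second 3 of 29 (10.3%) and the third 0 of 30. In the rest of the larger old list the 3 counts were 1 of 28 (Tcf7l2), 0 of 29 and 2 of 30 (Elovl6 and Lipc). Over all protein-coding genes the shares were 1.39% for the larger young list and 2.45% for the rest. The secreted-protein genes are short, with a median of 9974 bp. Insulin and growth factor signalling had 2 of 30, Igf1r and Met, and DNA repair 2 of 30. These were Rad50, of the MRN complex, with 236 against 0, and Nsmce2, a SUMO ligase, with 410 against 5 in a shifted interval. Single hosts were found in the lists of the Hippo pathway (Stk3), chromatin and elongation (Chd1) and oxidative stress (Msra). No host was found among 25 genes of senescence and inflammation, with a median length of 9752 bp.

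**Figure D5:**
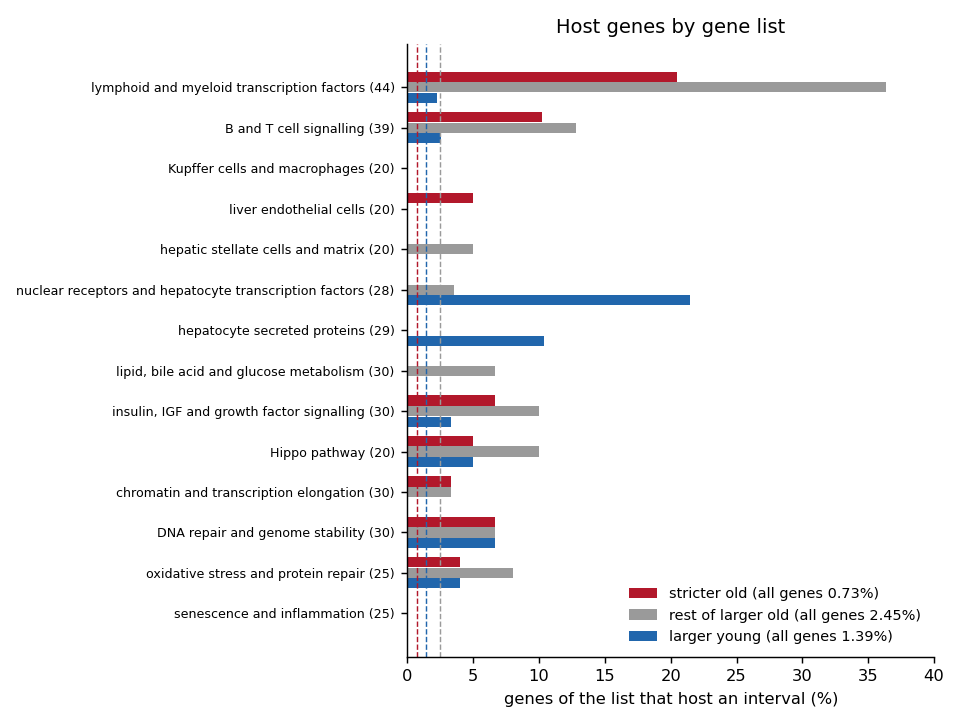
Percentage of the genes of each list (number of genes in brackets) that host a member (red), an interval of the rest of the larger old list (grey) or an interval of the larger young list (blue). Dashed lines are the shares over all protein-coding genes, 0.73%, 2.45% and 1.39%; lymphoid and myeloid transcription factors stand highest in red at 20.5%.

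Members with no larger-list interval have no read value. These 19 lay in Dip2b, Gramd4, Cap2, Syt16, Ubxn11, Calcr, Sgcz, Rgs20, F13a1, Tnfsf18, Fpr1, Dock2, C130026I21Rik, Csmd1, Bche, Dclk1, Gm47283 and Gm30551, and in 1 position outside genes on chromosome 16. Fpr1 encodes a formyl peptide receptor of neutrophils, F13a1 the coagulation factor XIII subunit of macrophages and platelets, and Bche a cholinesterase that liver secretes. Gm47283 lies at the pseudoautosomal end of chromosome Y, which shares its sequence with chromosome X. In all, 14 members had no protein-coding host, of which 11 lay in non-coding genes such as Pvt1, beside Myc, with 466 against 7, and Halr1, in the Hoxa region, with 213 against 0 in a shifted interval. After Gm17745, the most reads among these were in Gm26839, with 740 against 0, and Gm14005, with 677 against 4.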

How the data were processed

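Capped nascent RNA was measured by PRO-cap in 8 liver samples, 4 old and 4 young. Per the submitters' processing notes, the tools were HOMER, bedtools 2.27.1-65, SAMtools 1.1, BWA 0.7.10 and cutadapt 2.10, and the builds named are mm10, GRCm38 and hg19. No source used here says how peaks were called or what NoInt in the name of the stricter list means. The authors deposited 1 fold, a ratio, per interval of the larger lists. The stricter lists carry a deposited score of 0 in every row and were used for positions only.

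Each deposited fold was solved for whole reads at both ages, within 1e-07 reads and with up to 1000 reads tried on the other side, a step tested on simulated data. 1 read was worth 8.55 (old) and 8.15 (young) times the added constant, which puts the depth of old over young at 0.953 if both were scaled alike. Total depth is unknown. Ratios carry 95% Clopper-Pearson intervals, and 0 reads were set to a floor of 3, which covers counting error only.

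Interval centres were assigned to GENCODE M21 genes on either strand, and lists overlapped where they shared at least 1 bp. Where several protein-coding genes held a centre, its position and host length were taken from 1 of them. A host with the centre beyond its middle was preferred, then the longest. Loci joined intervals within 500 bp. Shares of loci were compared with Fisher's exact test (SciPy 1.17.1), two-sided, with Newcombe intervals for differences and Benjamini-Hochberg adjustment, at a threshold of 0.05. The members, gene lists and tests were chosen with earlier results of these data known. Named are host genes with 3 or more members, those of the 10 members with the most reads, of coding members, of members without a larger-list interval and of members just inside or outside the read range, and listed genes that host a member. Bcl2 and the genes in other counts (untranslated exons, early positions, shared hosts, non-coding genes, chromosome X) were chosen after their values were seen. Planned comparisons of GC content, repeats and motifs over all intervals were not run, since no genome sequence was used here. Python 3.11.15, NumPy 2.4.6, pandas 2.3.3 and matplotlib 3.10.9 were used. The result of 1 gene family is not reported here.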

Additional observations from a re-analysis of the deposited data

How the results depend on the processing

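Of 25 alternatives, 17 concerned the 3 tests. No alternative took an adjusted Fisher's exact p past the threshold; they ranged from 0.660 to 1 for the exonic and coding shares and from 0.335 to 0.980 for long hosts, whose difference was 2.89 to 7.50 points. The sign of the exonic difference turned with every interval as its own unit (-0.554 percentage points), loci joined within 5 kb (-0.419), 1 interval per host gene (-1.01) and the rest limited to at least 223 old reads (-2.80). The coding difference turned in 3 of these, to -0.419 with every interval, -0.0291 with 1 per host gene and -0.416 with at least 223 reads. The limit of 223 reads, the lower quartile of members, was chosen after seeing the data. The median distance to a start was 32907.5 bp with starts of protein-coding transcripts alone. Overlap (182 or 197), host genes (158 or 161) and median reads (300 or 324) moved little. No paired analysis was possible because each age has 1 pooled list, and no replicate could be left out for the same reason. Alternatives for GC content, repeats and motifs were not run.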

Other observations

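Gene families outside the pathway lists were counted in the same way. Of all protein-coding genes, 0.73% hosted a member, 2.45% an interval of the rest and 1.39% an interval of the larger young list. Among 23 cyclic nucleotide phosphodiesterases, of median length 120938 bp, 2 did, Pde4b and Pde4d, and the Pde4d member had 380 old reads against 0. Of 91 regulators of Rab, Arf and Ras GTPases 1 did, Rasa3, with 201 against 0 in a shifted interval. Among 371 solute carriers 1 hosted a member (0.270%), Slc41a3, with 345 against 0, and among 138 channel subunits 1 (0.725%), Cacnb1, with 382 against 20. The rest had 7 and 4 hosts in these 2 families, and the larger young list 9 and 1. Of 177 collagens, laminins, integrins and cadherins 1 hosted a member (0.565%), Cdh5, and of 57 ADAM and ADAMTS proteases 1, Adamts14, with 247 against 7. Here the rest had 29 hosts, most of them genes named Pcdhg, and 0, and the larger young list 1 and 0. No member lay in 394 zinc finger genes named Zfp, 20 receptor tyrosine phosphatase genes, 98 ribosomal protein genes or 1134 olfactory receptor genes, the last 2 of these being short. In that order the rest had 2, 2, 0 and 2 hosts, and the larger young list 3, 3, 0 and 0. Runx1t1, a corepressor counted with the Runx factors by its name, had 412 against 0.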
